A study of Mus musculus with 12 samples.

Results

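The 34 genes described here act in DNA repair and in the checkpoints that answer DNA damage. They were listed by name, with earlier results of these data known. They comprise 7 genes of homologous recombination (Brca1, Brca2, Bard1, Palb2, Rad51ap1, Rad54l and Rad54b), 6 of the Fanconi anemia pathway (Fanca, Fancb, Fancc, Fancd2, Fanci and Fancm), the helicase gene Blm and the nuclease gene Exo1, 3 of mismatch repair (Msh3, Msh6 and Pms2), the uracil glycosylase gene Ung, 4 checkpoint kinases (Atm, Atr, Chek1 and Chek2), 4 of non-homologous end joining (Xrcc5, Xrcc6, Prkdc and Lig4), the polymerase genes Parp1 and Parp2, 3 of the MRN complex (Mre11a, Nbn and Rad50), and Trp53bp1 and Rif1. Each has a probe on the arrays, 33 of the 34 could be tested among 22744 genes in all, and 30 were well above background on all 12 arrays. Brca1, a central mediator of homologous recombination, was not tested, because its only probe was well above background on just 2 arrays, WT 0 h array 1 and Bach2-/- 24 h array 1.

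RNA was measured in follicular B cells purified from the spleens of male C57BL/6J mice, either WT or lacking Bach2 (Bach2-/-), a transcriptional repressor of B lymphocytes. The 4 groups, with 3 one-colour Agilent arrays each, were WT and Bach2-/- cells at 0 h and WT and Bach2-/- cells cultured for 24 h with 10 µg/mL of an anti-mouse IgM Fab' reagent, which engages the B cell receptor. No group was cultured for 24 h without the reagent. Time in culture and receptor engagement therefore cannot be told apart in any change from 0 h to 24 h. The study set out to learn what limits the proliferation of Bach2-/- cells once the receptor is engaged. All arrays share the strain, the tissue and the purified cell type, while the age of the mice and the way the Bach2 allele was made are not given in the sources used here. Array 1 of every group lay on slide 2 (4 arrays) and arrays 2 and 3 on slide 1 (8 arrays), so each difference could also be taken within a slide. The labels do not say that arrays come from separate animals or cultures, so p-values cover only how much these samples vary, and that variation may be technical.

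Replication after activation of a B cell produces stalled and broken forks, which homologous recombination, the Fanconi anemia proteins and the Atr and Chek1 kinases handle. Antibody diversification produces uracils and breaks in immunoglobulin genes, which Ung, the mismatch repair proteins, the MRN complex, Atm, Trp53bp1 and the end joining proteins process. Many replication and repair genes are targets of E2F transcription factors, which act at the entry into S phase.

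Several properties of the arrays bear on every result. The genotype label was borne out by Bach2 itself, whose reported probe lay 2.56 lower on the log2 scale in Bach2-/- cells at 0 h (standard error, SE, 0.30) and 3.75 lower at 24 h (SE 0.30), with no overlap of arrays. The place of that probe relative to the deleted part was not known here, and a further Bach2 probe exceeded background on each of the 6 WT arrays and on 0 Bach2-/- arrays. Xist, transcribed from the inactive X chromosome of females, was well above background by both of its probes on all 4 arrays of slide 2 and on Bach2-/- 0 h array 3, and by 1 probe on WT 24 h array 2, although all mice are labelled male. Bach2-/- 0 h array 1 gave no signal well above background for the Y-linked genes Ddx3y and Eif2s3y, and Bach2-/- 24 h array 2 was the dimmest, with a 75th percentile of 97.3 against up to 358 on the others. These are called the doubted arrays, and counts without them are given beside the results. Of 12 follicular B cell markers, 10 were tested, and each was well above background on at least 1 array of every group.

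Values are log2 signals relative to the 75th percentile of their array, so they compare arrays for 1 gene and not genes with each other. Differences are log2 differences ± SE with n = 3 arrays per group, tested with limma over 12 arrays, and a gene passed where its p, adjusted by Benjamini and Hochberg's method over the 22744 genes, was under 0.05. Arrays of the same replicate number varied together across groups, so the value with a replicate block is given where it changes a call. The labels do not state such a pairing, so block results are an alternative and not the main test. In bulk RNA, fewer cells that express a gene and less RNA per cell cannot be told apart.

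The promoters of the members were read from RefSeq (GRCm38.p6) for 27 of the 34, each over 250 bases before and 50 after the start of the gene. Those of Brca2, Blm, Mre11a and Rad54l are shown, at most 4 being taken by the number of comparisons in which the gene passed. Brca2 and Blm passed for the change from 0 h to 24 h in both genotypes, and Mre11a and Rad54l, like other members, in WT cells. Capitals mark a match to 1 of 4 E2F motif spellings (TTCCCGC or TTGGCGC or TTCGCGC or TTGCCGC) on either strand, here within the 250 bases upstream, written 5′ to 3′ on the strand of the gene. Brca2 lies at chr5:150522371-150522620 on the plus strand, Blm at chr7:80534999-80535248 on the minus strand, Mre11a at chr9:14784404-14784653 on the plus strand and Rad54l (the first of 2 promoters listed) at chr4:116123691-116123940 on the minus strand.
Brca2: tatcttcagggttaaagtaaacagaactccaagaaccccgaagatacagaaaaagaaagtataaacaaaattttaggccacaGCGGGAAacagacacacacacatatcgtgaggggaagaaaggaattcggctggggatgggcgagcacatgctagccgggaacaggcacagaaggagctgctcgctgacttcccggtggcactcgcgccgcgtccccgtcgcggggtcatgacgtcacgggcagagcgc
Blm: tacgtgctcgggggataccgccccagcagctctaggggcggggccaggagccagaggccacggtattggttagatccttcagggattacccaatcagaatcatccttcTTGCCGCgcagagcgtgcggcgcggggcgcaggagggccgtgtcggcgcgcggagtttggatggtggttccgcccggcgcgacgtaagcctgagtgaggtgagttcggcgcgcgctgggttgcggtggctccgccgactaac
Mre11a: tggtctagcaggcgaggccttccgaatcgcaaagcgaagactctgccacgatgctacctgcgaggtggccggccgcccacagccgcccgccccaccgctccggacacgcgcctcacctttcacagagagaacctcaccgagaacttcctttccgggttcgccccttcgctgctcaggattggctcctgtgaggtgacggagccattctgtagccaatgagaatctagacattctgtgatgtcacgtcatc
Rad54l: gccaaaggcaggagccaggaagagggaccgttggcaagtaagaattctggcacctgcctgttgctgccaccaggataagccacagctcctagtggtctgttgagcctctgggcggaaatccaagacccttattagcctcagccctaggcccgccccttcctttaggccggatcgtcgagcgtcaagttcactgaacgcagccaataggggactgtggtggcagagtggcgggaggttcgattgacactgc

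Counted from the start of the gene, the match in Brca2 begins at position -168 and that in Blm at position -142, whereas Mre11a and Rad54l hold none in the window shown. Over the full windows, 16 of the 27 member promoters (59.3%) held an E2F match, against 9.57% of all 32851 promoters and 15.3% of the 13308 promoters of tested genes. It stood in 4 of 10 promoters of members that rose in WT cells and in 12 of 17 promoters of the other members. These 12 include that of Brca1, whose change could not be tested. The difference between these shares was not tested. It also depends on the setting, since Msh6 and Xrcc6, which hold a match, rose with the replicate block. The CCAAT box stood in 16 of 27 member promoters, against 37.4% of all promoters. The motif TTTGAA, the core of the cell cycle homology region, stood in 1 of 27 (17.9% of all promoters), that of Bard1, and TGAGTCA, the core of the AP-1 and Bach recognition elements, in 0 of 27 (5.2% of all promoters). These matches describe the letters of the windows and not binding.

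In WT cells, 14 of the 33 members tested rose after 24 h with anti-IgM and 0 fell, while 11.5% of all genes rose and 9.06% fell. The risers were Brca2, Rad51ap1, Rad54l and Rad54b, Fancc, Fancd2 and Fanci, Blm and Exo1, Ung, Atr, Xrcc5, and Mre11a and Nbn. Their changes ran from 1.09 ± 0.32 (Blm, 2.13-fold) to 2.30 ± 0.46 (Rad51ap1, 4.92-fold). The median change over the 33 members was 0.91, against 0.040 over all genes. With the replicate block 19 members rose (27.6% of all genes), the additional ones being Palb2, Msh6, Xrcc6, Parp2 and Rad50, and 0 fell (19.3%).

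**Figure D1:**
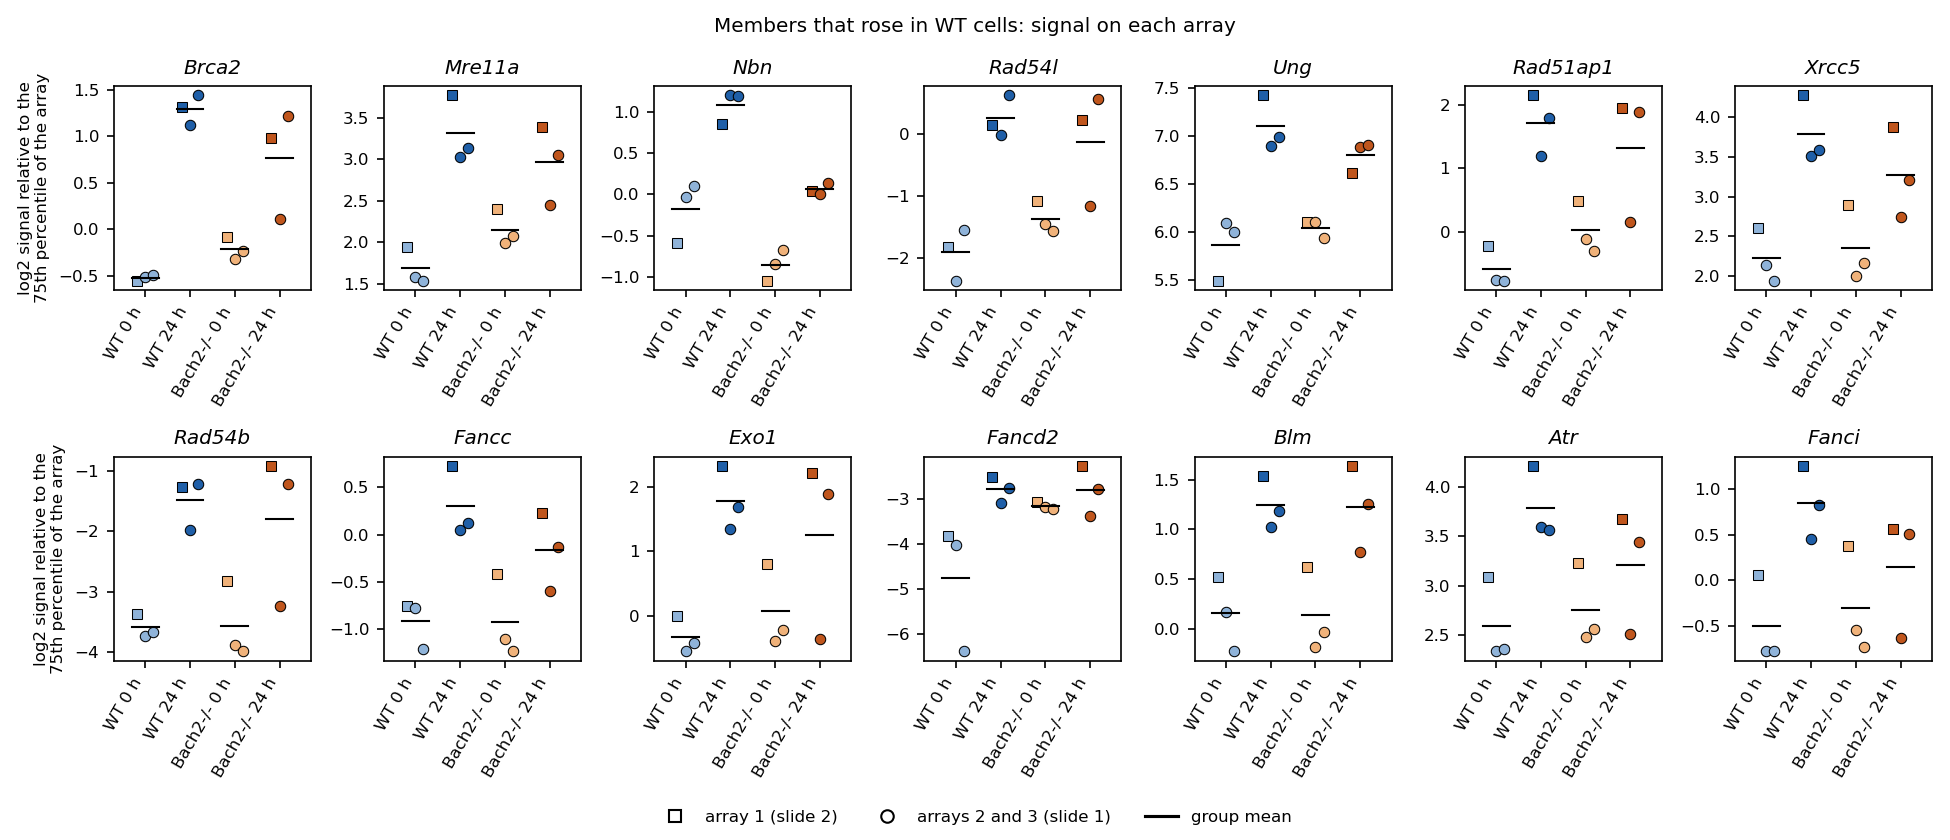
Each panel plots 1 of the 14 members that rose in WT cells, with the log2 signal relative to the 75th percentile of the array on the vertical axis and the 4 groups on the horizontal axis. Squares are array 1 (slide 2), circles are arrays 2 and 3 (slide 1) and bars are group means; in every panel the WT 24 h arrays lie above the WT 0 h arrays, and Bach2-/- 24 h array 2 is the lowest of its group in every panel but that of Ung.

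Of the 6 homologous recombination members tested, 4 rose in WT cells. Brca2, a mediator of strand invasion, read -0.55, -0.51 and -0.49 at 0 h and 1.32, 1.12 and 1.44 at 24 h in WT cells. These groups were far apart relative to their spread, and Brca2 had the smallest adjusted p of all members (1.81 ± 0.28, adjusted p = 0.00105). On the Bach2-/- arrays Brca2 went from -0.085, -0.32 and -0.23 at 0 h to 0.98, 0.11 and 1.21 at 24 h. It rose there too (0.98 ± 0.28, adjusted p = 0.0381), with array 2 at 24 h close to the 0 h arrays.

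Rad51ap1, which stimulates strand exchange, read -0.23, -0.76 and -0.77 in WT cells at 0 h and 2.15, 1.20 and 1.79 at 24 h. Its change of 2.30 ± 0.46 (adjusted p = 0.00501) was the highest among the members. On the Bach2-/- arrays it read 0.49, -0.11 and -0.30 at 0 h and 1.95, 0.15 and 1.88 at 24 h, and the groups overlapped through array 2. The change in Bach2-/- cells was 1.30 ± 0.46 (adjusted p = 0.098, with the block 0.00871).

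Rad54l and Rad54b encode DNA translocases of homologous recombination. Rad54l read -1.82, -2.38 and -1.54 at 0 h and 0.16, -0.0077 and 0.64 at 24 h in WT cells (2.18 ± 0.42, adjusted p = 0.00388). Its Bach2-/- arrays read -1.08, -1.46 and -1.56 at 0 h and 0.24, -1.16 and 0.57 at 24 h (1.25 ± 0.42, adjusted p = 0.0782, and 0.00821 with the replicate block). Array 2 at 24 h again lay among the 0 h arrays. Rad54b read -3.37, -3.73 and -3.67 at 0 h and -1.27, -1.98 and -1.22 at 24 h in WT cells, so the arrays of the groups were well apart (2.10 ± 0.54, adjusted p = 0.018). The Bach2-/- arrays read -2.82, -3.89 and -3.99 at 0 h and -0.92, -3.24 and -1.22 at 24 h (1.77 ± 0.54, adjusted p = 0.0531, and 0.00513 with the replicate block). A second Rad54b probe gave 1.41 ± 0.52 in WT cells, which did not pass over all probes (adjusted p = 0.0794), and 0.51 ± 0.52 in Bach2-/- cells.

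Palb2, which bridges Brca1 and Brca2, had a difference of 1.04 ± 0.37 in WT cells with no overlap of the groups (adjusted p = 0.0677, and 0.00808 with the replicate block). A further Palb2 probe gave 0.58 ± 0.48 in WT cells. Bard1, the partner of Brca1, gave 0.36 ± 0.52 in WT cells and 0.37 ± 0.52 in Bach2-/- cells, and its arrays overlapped in both. A further Bard1 probe gave -0.16 ± 0.55 in WT cells, so the probes differ in sign within their errors.

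The Fanconi anemia pathway, which repairs DNA interstrand crosslinks, split in WT cells. Fancd2 and Fanci, the paired clamp that is ubiquitinated at crosslinks, and Fancc of the core complex rose, while Fanca, Fancb and Fancm did not pass. Fanci went from 0.058, -0.78 and -0.78 at 0 h to 1.26, 0.46 and 0.83 at 24 h in WT cells (1.35 ± 0.42, adjusted p = 0.0403). On the Bach2-/- arrays it went from 0.37, -0.55 and -0.73 to 0.57, -0.63 and 0.50 (0.45 ± 0.42, adjusted p = 0.64), and the groups overlapped.

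Fancd2 read -3.83, -4.04 and -6.39 at 0 h and -2.52, -3.09 and -2.77 at 24 h in WT cells (1.96 ± 0.56, adjusted p = 0.0294). At 0 h only 1 of the 3 WT arrays was well above background, and array 3 set its low mean. It lost its call with another background correction (0.268), with the compared groups fitted alone (0.0757), and without WT 0 h array 3 (0.0539) or any 1 of the WT 24 h arrays (0.0521 to 0.0924). Fancc read -0.75, -0.77 and -1.21 at 0 h and 0.73, 0.052 and 0.12 at 24 h in WT cells (1.21 ± 0.32, adjusted p = 0.0192). A further Fancc probe gave 1.27 ± 0.36 for the same change. Fancc in Bach2-/- cells gave 0.75 ± 0.32 (adjusted p = 0.169, and 0.0109 with the replicate block), whereas the further probe gave 0.15 ± 0.36 there and a genotype difference of -1.23 ± 0.36 at 24 h.

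Fanca, another core complex member, went the other way. It read 1.80, 1.68 and 1.84 at 0 h and 1.34, 1.13 and 1.20 at 24 h in WT cells, with no overlap, but did not pass (-0.55 ± 0.35, adjusted p = 0.332). Its Bach2-/- values were 1.69, 1.17 and 1.05 at 0 h and 0.65, -0.73 and 0.67 at 24 h, again without overlap (-1.11 ± 0.35, adjusted p = 0.0634, and 0.011 with the replicate block). Fancb, also of the core complex, and Fancm, the translocase that recruits it, differed by 0.15 ± 0.39 and -0.25 ± 0.23 in WT cells.

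Blm, a RecQ helicase that limits crossing over, and Exo1, an exonuclease of end resection and mismatch repair, both rose in WT cells. Blm read 0.52, 0.18 and -0.22 at 0 h and 1.54, 1.02 and 1.19 at 24 h (1.09 ± 0.32, adjusted p = 0.0311). Its Bach2-/- arrays read 0.62, -0.17 and -0.024 at 0 h and 1.64, 0.77 and 1.26 at 24 h, which gave nearly the same size of change (1.08 ± 0.32, adjusted p = 0.0443). The difference between those changes was -0.011, with a 95% interval from -0.99 to 0.97. Exo1 read -0.0049, -0.55 and -0.42 at 0 h and 2.33, 1.34 and 1.68 at 24 h in WT cells (2.11 ± 0.59, adjusted p = 0.0266). Exo1 in Bach2-/- cells read 0.81, -0.38 and -0.22 at 0 h and 2.21, -0.35 and 1.89 at 24 h (1.18 ± 0.59, adjusted p = 0.267, and 0.036 with the replicate block), and array 2 at 24 h lay within the range of the 0 h arrays.

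Among the genes of antibody diversification, Ung rose in WT cells. This glycosylase removes uracils from DNA. It read 5.49, 6.10 and 6.00 at 0 h and 7.43, 6.90 and 6.99 at 24 h (1.24 ± 0.24, adjusted p = 0.00439). The Bach2-/- values of Ung were 6.10, 6.10 and 5.94 at 0 h and 6.62, 6.89 and 6.90 at 24 h, also without overlap (0.76 ± 0.24, adjusted p = 0.0663, and 0.0176 with the replicate block). Ung was among the members that array 2 of the Bach2-/- 24 h group did not pull down.

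Mismatch repair did not pass in WT cells. Msh6, a subunit of the complex that recognises base mismatches, differed by 0.91 ± 0.34 with no overlap of the groups (adjusted p = 0.0855, and 0.00146 with the replicate block). Pms2, an endonuclease subunit of mismatch repair, differed by 0.10 ± 0.28. Msh3, which recognises insertion and deletion loops, differed by -0.099 ± 0.31 in WT cells and by -0.81 ± 0.31 in Bach2-/- cells (adjusted p = 0.122, with the block 0.00572). A further Msh3 probe passed over all probes in Bach2-/- cells (-0.81 ± 0.23, limma, adjusted p = 0.0402) and gave -0.50 ± 0.23 in WT cells. Another gave -1.08 ± 0.40 in Bach2-/- cells, which did not pass, and -0.069 ± 0.40 in WT cells.

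The MRN complex binds and tethers DNA ends and activates Atm. Mre11a, its nuclease, read 1.94, 1.59 and 1.53 at 0 h and 3.77, 3.03 and 3.13 at 24 h in WT cells (1.63 ± 0.30, adjusted p = 0.00307). Its Bach2-/- arrays read 2.40, 1.99 and 2.07 at 0 h and 3.39, 2.45 and 3.06 at 24 h, higher on each 24 h array (0.81 ± 0.30, adjusted p = 0.113, and 0.00334 with the replicate block). Rad50, its ATPase, differed by 0.59 ± 0.29 in WT cells without overlap (adjusted p = 0.186, and 0.0102 with the replicate block) and by 0.10 ± 0.29 in Bach2-/- cells. A further Rad50 probe gave 0.19 ± 0.22 in WT cells and 0.21 ± 0.22 in Bach2-/- cells.

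Nbn, the subunit that recruits Atm, rose in both genotypes. It read -0.58, -0.032 and 0.096 at 0 h and 0.86, 1.20 and 1.19 at 24 h in WT cells (1.26 ± 0.24, adjusted p = 0.00385). Nbn in Bach2-/- cells read -1.05, -0.84 and -0.67 at 0 h and 0.047, 0.01 and 0.14 at 24 h (0.92 ± 0.24, adjusted p = 0.0259). The 3 Bach2-/- 24 h arrays lay close together, including array 2.

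Of the 4 members of non-homologous end joining, Xrcc5 rose in WT cells. Xrcc5 and Xrcc6 encode the Ku heterodimer, which caps broken ends. Xrcc5 read 2.61, 2.13 and 1.94 at 0 h and 4.28, 3.51 and 3.59 at 24 h in WT cells (1.57 ± 0.37, adjusted p = 0.011), and lost its call without WT 0 h array 3 (0.0514). Xrcc5 in Bach2-/- cells read 2.90, 2.0 and 2.16 at 0 h and 3.88, 2.74 and 3.21 at 24 h (0.92 ± 0.37, adjusted p = 0.14, and 0.00118 with the replicate block). Xrcc6 differed by 1.01 ± 0.44 in WT cells without overlap (adjusted p = 0.134, and 0.000731 with the replicate block) and by 0.087 ± 0.44 in Bach2-/- cells. Prkdc, the catalytic subunit of the DNA-dependent protein kinase, differed by 0.32 ± 0.41 and Lig4, the ligase of the pathway, by -0.24 ± 0.32 in WT cells.

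Of the checkpoint kinases, only Atr passed in WT cells. Atr, which senses single-stranded DNA at stalled forks, read 3.09, 2.33 and 2.36 at 0 h and 4.21, 3.60 and 3.56 at 24 h (1.20 ± 0.37, adjusted p = 0.0393). It lost its call in 10 of 24 alternatives, among them the one with no filter on dim probes (0.0711). In Bach2-/- cells Atr read 3.23, 2.48 and 2.56 at 0 h and 3.67, 2.51 and 3.44 at 24 h (0.45 ± 0.37, adjusted p = 0.572). Chek1, the kinase that Atr activates, differed by 0.16 ± 0.20 in WT cells, with a 95% interval from -0.29 to 0.60. Atm, the kinase that answers broken ends, and Chek2, which it activates, differed by -0.20 ± 0.29 and -0.090 ± 0.36.

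Parp1 and Parp2 sense strand breaks and build poly(ADP-ribose) chains. Parp1 differed by -0.11 ± 0.45 in WT cells and by -1.15 ± 0.45 in Bach2-/- cells (adjusted p = 0.133, and 0.000982 with the replicate block). Parp2 differed by 0.52 ± 0.43 in WT cells (adjusted p = 0.468, and 0.0387 with the replicate block) and by -0.42 ± 0.43 in Bach2-/- cells. Trp53bp1 and Rif1, which shield broken ends from resection, differed by 0.42 ± 0.39 and 0.43 ± 0.40 in WT cells with overlapping arrays.

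All 14 WT changes had the same sign within each slide, from 0.90 to 2.28 on slide 1 and from 1.01 to 2.38 on slide 2. Brca2, Mre11a, Nbn, Rad51ap1, Rad54l and Ung kept their WT calls in all 24 alternatives. The other 8 each lost theirs in at least 1, and leaving out 1 array left 6 (without WT 0 h array 3) to 16 members called. Quantile normalization lowered the median WT change of the members to 0.60 and background correction with normexp lowered it to 0.51.

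**Figure D2:**
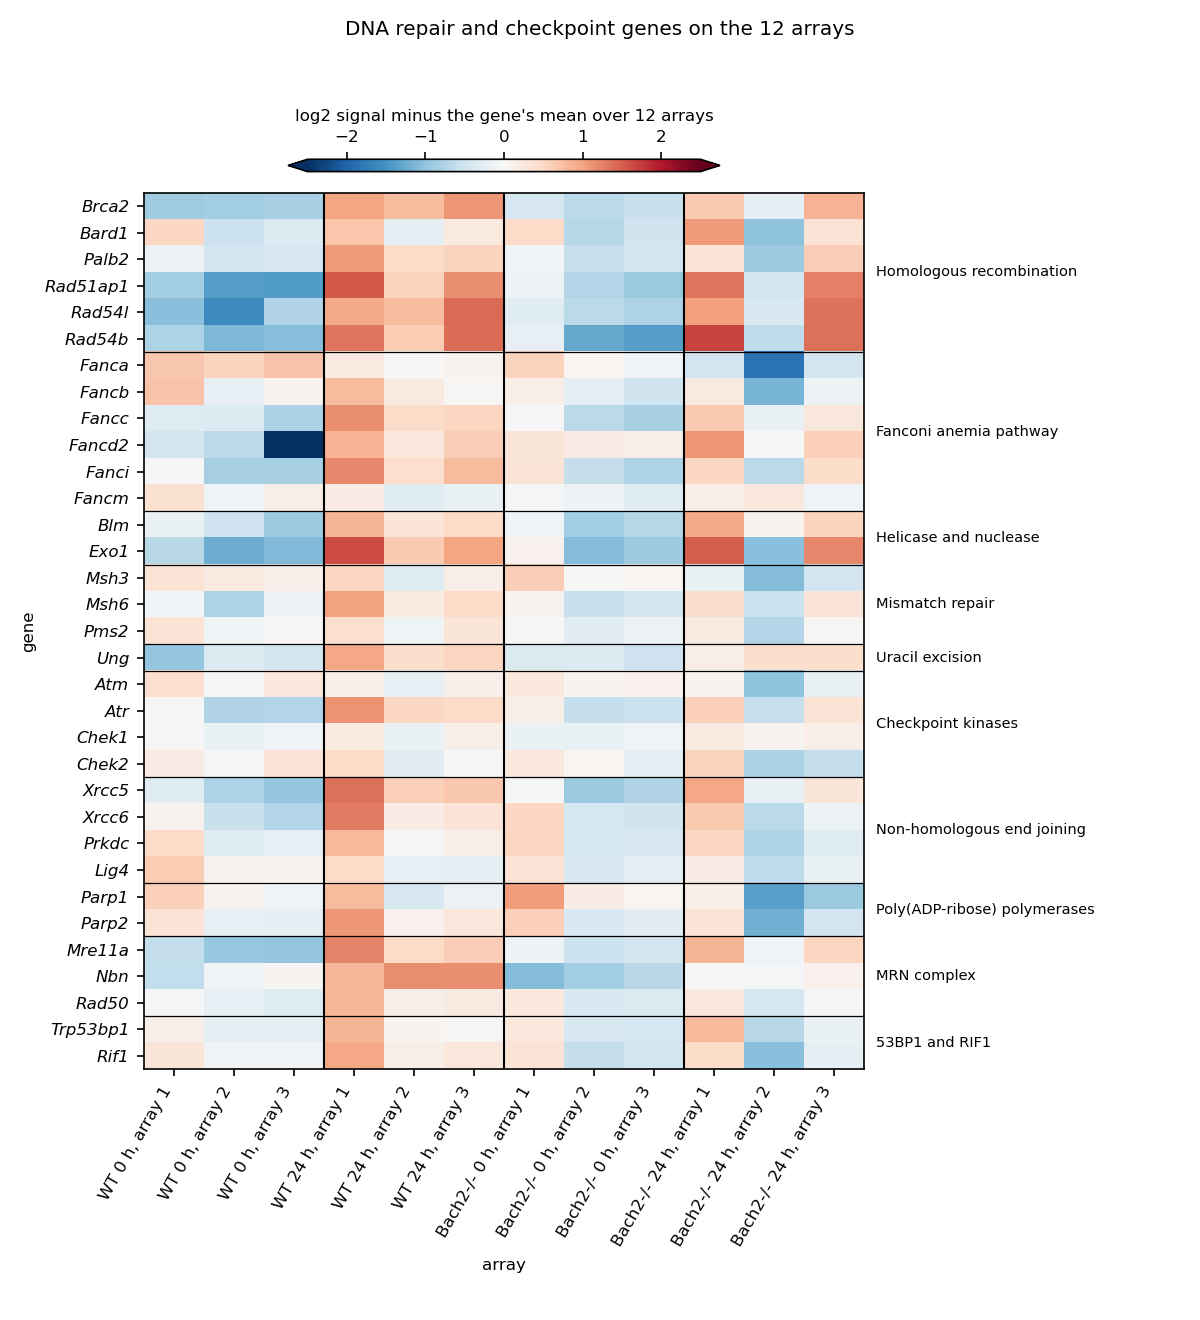
Rows are the 33 tested members grouped by role and columns are the 12 arrays; colour gives the log2 signal minus the mean of that gene over the 12 arrays. The WT 24 h columns are mostly red in the recombination, helicase and MRN rows, and Bach2-/- 24 h array 2 is bluer than arrays 1 and 3 of its group.

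In Bach2-/- cells 3 members rose (5.5% of all genes) and 0 fell (7.74% of all genes) after 24 h with anti-IgM. The risers were Brca2, Blm and Nbn, all of which also rose in WT cells. The median change over the members was 0.34, against 0.072 over all genes. With the replicate block 11 rose (16.7% of all genes) and 4 fell (16.8%). The additional risers were Rad51ap1, Rad54l, Rad54b, Fancc, Exo1, Ung, Xrcc5 and Mre11a, and those that fell were Fanca, Msh3, Atm and Parp1.

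Each call in Bach2-/- cells depended on the setting. Brca2, Blm and Nbn lost theirs with normexp (0.103, 0.0618 and 0.118) and with no filter (0.076, 0.0819 and 0.0595), and over all alternatives their adjusted p reached 0.167, 0.17 and 0.118. Leaving out 1 array gave 0 to 8 calls, with 0 without Bach2-/- 0 h array 2, Bach2-/- 0 h array 3 or Bach2-/- 24 h array 3 and 8 without Bach2-/- 24 h array 2, while without Bach2-/- 24 h array 1 the only 2 calls were lower. Where array 2 was left out, the members' median change was 0.63, and where array 1 was left out it was 0.21. Without both doubted arrays 10 members passed, as did 14.0% of all genes.

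The array means show the same picture. The mean log2 signal of the 33 members in WT cells stood at 0.82, 0.43 and 0.42 at 0 h and reached 1.74, 1.10 and 1.32 at 24 h. The Bach2-/- arrays had means of 0.99, 0.42 and 0.41 at 0 h and of 1.42, 0.28 and 1.07 at 24 h, while the mean over all genes stayed between 0.34 and 0.47 on every array. Array 2 of the last group was therefore lower than its 0 h counterpart, whereas arrays 1 and 3 were higher than theirs.

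Members that changed more in WT cells also changed more in Bach2-/- cells. Across the 33 members the changes correlated at Pearson r = 0.858 and Spearman rho = 0.877, against 0.760 and 0.684 across all genes, and the comparisons share no arrays. This is a description across genes, which are not independent replicates and whose values come from the same libraries. The change was below the WT change in 29 of the 33 members, where 55.6% of all genes lay below.

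**Figure D3:**
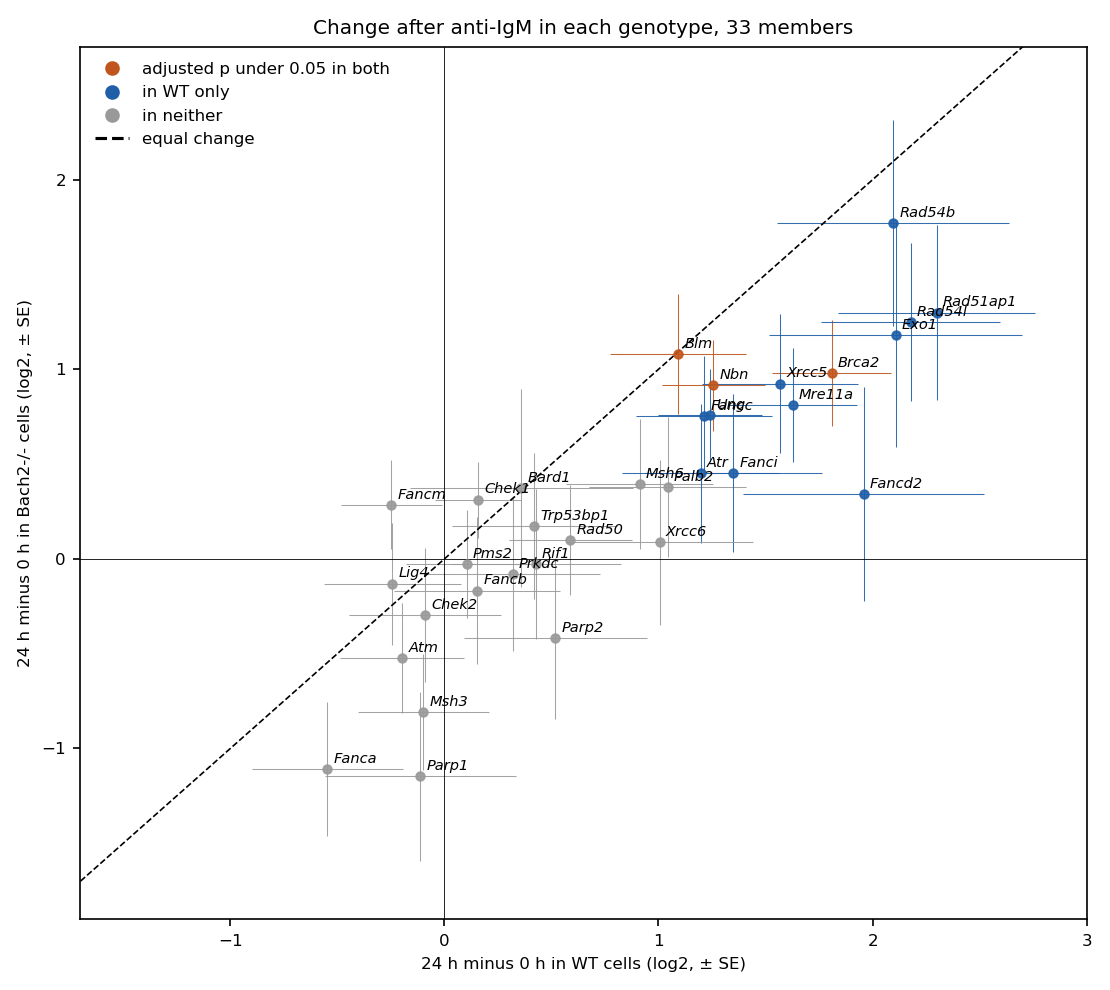
The change from 0 h to 24 h in WT cells (horizontal) is plotted against that in Bach2-/- cells (vertical) for the 33 members, on the log2 scale with SE bars. Brca2, Blm and Nbn passed in both genotypes, 11 more passed in WT cells, and 29 members lie below the dashed line of equal change.

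The test of whether the change differed between genotypes found 0 members, in either direction, at an adjusted p under 0.05, with limma or with the replicate block (0.255% of all genes had a higher and 0.0616% a lower change in Bach2-/- cells). The block called 1.72% of all genes higher and 2.56% lower. At an unadjusted p under 0.05 limma also found 0 members, against 3.65% of all genes higher and 3.51% lower. The lowest adjusted p were 0.722 for Brca2 (-0.83, 95% interval -1.69 to 0.034) and 0.747 for Fancd2 (-1.62, 95% interval -3.36 to 0.13). The median difference over the members was -0.49, against -0.089 over all genes, and it became -0.21 without Bach2-/- 24 h array 2, -0.32 without WT 24 h array 1, -0.76 without Bach2-/- 24 h array 1 and -0.0095 without both doubted arrays. Members that passed in WT cells and not in Bach2-/- cells were thus not shown to respond differently.

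At 0 h, 0 members were higher (0.536% of all genes) and 0 lower (0.0923% of all genes) in Bach2-/- cells. At an unadjusted p under 0.05 limma had 1 higher (3.9% of all genes), Fancd2 (1.59 ± 0.56, adjusted p = 0.496), and 1 lower (2.2%), Nbn (-0.68 ± 0.24, adjusted p = 0.498). With the replicate block Nbn was lower (0.0357), as were 0.919% of all genes, and 0 members were higher (2.78%). The Bach2-/- arrays of Nbn all lay below its WT arrays. The Fancd2 difference rests on a WT group in which 2 of 3 arrays were not well above background. Brca2 and Mre11a lay higher on all Bach2-/- 0 h arrays than on the WT arrays, by 0.30 ± 0.28 and 0.47 ± 0.30, and neither passed. The median difference over the members was -0.00023, against 0.032 over all genes.

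At 24 h, 1 member was lower in Bach2-/- cells (0.831% of all genes) and 0 were higher (2.15% of all genes). It was Nbn, at 0.047, 0.01 and 0.14 in Bach2-/- cells against 0.86, 1.20 and 1.19 in WT cells (-1.02 ± 0.24, 2.02-fold lower, adjusted p = 0.046). Its groups did not overlap, and the difference was -1.12 on slide 1 and -0.81 on slide 2. It lost its call in 16 of 24 alternatives, with adjusted p from 0.00174 to 0.232, including the fit of the compared groups alone (0.232), both doubted arrays left out (0.114) and every omission of 1 array other than WT 0 h array 1 (0.0562 to 0.184).

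With the replicate block 9 members were lower at 24 h (10.7% of all genes) and 0 higher (7.98%). Beside Nbn (0.002) these were Parp2 (0.00883), Parp1 (0.0182), Msh3 (0.0238), Xrcc6 (0.0255), Fanca (0.0306), Rif1 (0.0313), Prkdc (0.0392) and Xrcc5 (0.0441). Parp2 read 2.42, 1.44 and 1.63 on the WT arrays and 1.69, 0.14 and 0.87 on the Bach2-/- arrays (-0.93 ± 0.43, adjusted p = 0.403 without the block). Parp1 read 4.55, 3.38 and 3.61 against 3.91, 2.39 and 2.82 (-0.80 ± 0.45, adjusted p = 0.529 without the block). Both were lower on each Bach2-/- array than on the WT array of the same number, while the groups overlapped. Fanca read 1.34, 1.13 and 1.20 against 0.65, -0.73 and 0.67, with no overlap (-1.03 ± 0.35, adjusted p = 0.207 without the block).

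In all, 31 of the 33 members lay below 0 at 24 h, where 54.1% of all genes did, and their median was -0.47 against -0.053 over all genes. The exceptions were Fancm (0.20 ± 0.23) and Chek1 (0.085 ± 0.20). Within the slides the median was -0.57 on slide 1 and -0.39 on slide 2. Single arrays moved this median by over 1.5 times. It was -0.20 with 23 members below 0 without Bach2-/- 24 h array 2, -0.26 with 27 below 0 without WT 24 h array 1, and -0.74 with 31 below 0 without Bach2-/- 24 h array 1. With both doubted arrays left out, 0 members passed (2.45% of all genes), and with the replicate block 3 of 33 did so, close to the 9.31% of all genes.

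**Figure D4:**
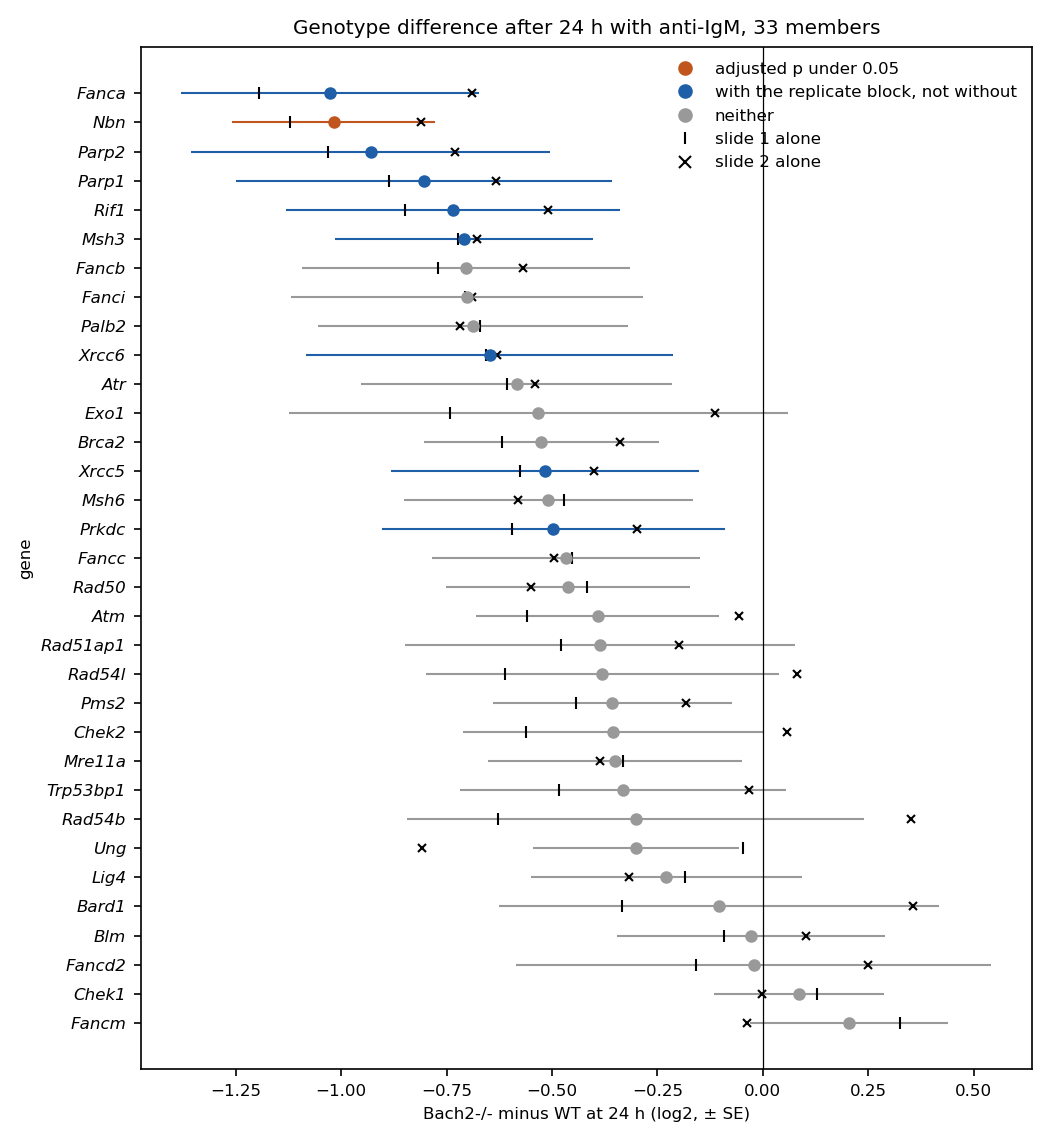
For each of the 33 members the point gives the log2 difference of Bach2-/- from WT cells at 24 h with its SE, and the ticks and crosses give the difference within slide 1 and slide 2. Nbn passed, 8 more passed with the replicate block and not without it, and 31 members lie left of 0.

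Markers of other cells moved with the genotype and the culture. At 24 h, 4 of 7 tested erythroid and platelet markers and 3 of 12 T cell markers were higher in Bach2-/- cells. So were 2 of 7 macrophage and monocyte, 1 of 9 neutrophil and 2 of 6 dendritic cell markers. Another dendritic cell marker was lower. Of all genes, 2.15% were higher and 0.831% lower. At 0 h the macrophage and monocyte marker Ms4a7 was higher (3.16 ± 0.38, limma, adjusted p = 0.00243). At an unadjusted p under 0.05, 5 of 7 erythroid and platelet and 5 of 9 neutrophil markers were higher at 0 h (3.9% of all genes). The summed relative signal of the erythroid and platelet list ran from 9.05 to 18.2 in WT cells at 0 h, from 3.08 to 4.25 in WT cells at 24 h, from 34.7 to 103 in Bach2-/- cells at 0 h and from 12.5 to 35.5 in Bach2-/- cells at 24 h. At 24 h, Klf1, Ppbp, Itga2b, Gp9 and Gata1 of that list were not well above background on any array of either genotype. Of the follicular B cell markers, 7 of 10 fell in WT cells (9.06% of all genes) and 9 of 10 in Bach2-/- cells (7.74%). Their summed signal went from 1211 to 1658 down to 499 to 922 in WT cells. In Bach2-/- cells it went from 1301 to 2068 down to 289 to 487. Of 6 NK cell markers, 3 fell in each genotype. The part of these lists in the member differences was not tested.

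The other genes of these pathways and of proliferation, from fixed lists, give the context. Of 37 other homologous recombination and Fanconi genes tested, 8 rose in WT cells (11.5% of all genes) and 0 fell (9.06%), with a median change of 0.63. Among them were Xrcc3, which acts in strand exchange (1.81 ± 0.42, adjusted p = 0.0112), and Brip1, a helicase that binds Brca1 (1.41 ± 0.34, 0.0125). In Bach2-/- cells 1 of the 37 rose (5.5% of all genes), Mcm8 (1.40 ± 0.36, 0.0243). At 24 h 0 of the 37 passed between genotypes with limma (2.15% of all genes higher and 0.831% lower). With the replicate block 11 were lower (10.7% of all genes). At an unadjusted p under 0.05, 1 was higher and 4 lower, for which no share of all genes is given here.

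Of 23 other mismatch and base excision repair genes, 6 rose (11.5% of all genes) and 2 fell (9.06%) in WT cells. Lig3, a DNA ligase (1.21 ± 0.23, adjusted p = 0.00317), Tdg, a thymine glycosylase (1.63 ± 0.32, 0.00403), and Apex1, the abasic site endonuclease (1.92 ± 0.48, 0.015), rose, while Parp3 and the glycosylase gene Mbd4 (-1.45 ± 0.24, 0.00156) fell. In Bach2-/- cells 1 of the 23 rose (5.5% of all genes), Tdg (1.46 ± 0.32, adjusted p = 0.00878). There 2 fell (7.74% of all genes), Mbd4 (-1.84 ± 0.24, 0.000291) and Parp3. Parp3, a relative of Parp1, was the only gene of these repair lists to pass between genotypes at 24 h (-2.0 ± 0.29, adjusted p = 0.00285). With the replicate block 8 genes of its list were lower (10.7% of all genes). Of 12 other end joining genes 1 rose (11.5% of all genes) and 1 fell (9.06%) in WT cells, with a median change of -0.016. The riser was Mad2l2, which limits the resection of broken ends (1.64 ± 0.39, adjusted p = 0.0126). In Bach2-/- cells 0 of these 12 rose (5.5% of all genes) and 1 fell (7.74%).

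Among 23 other damage signaling and checkpoint genes, 5 rose (11.5% of all genes) and 1 fell (9.06%) in WT cells. Wee1, a kinase that restrains entry into mitosis (2.15 ± 0.33, adjusted p = 0.00111), and Timeless (2.28 ± 0.50, 0.0079), which serves Atr signaling at forks, rose, as did Clspn, another gene of Atr signaling, which was well above background on 1 of 3 WT 0 h arrays (1.71 ± 0.32, 0.0033), and the phosphatase gene Cdc25b fell (-2.04 ± 0.33, 0.00137). In Bach2-/- cells 1 of the 23 rose (5.5% of all genes), Wee1 (1.54 ± 0.33, adjusted p = 0.00883). There 1 fell (7.74% of all genes), Cdc25b (-3.13 ± 0.33, 6.47e-05). Of 19 nucleotide excision repair genes 5 rose (11.5% of all genes) and 0 fell (9.06%) in WT cells. In Bach2-/- cells 1 of them rose (5.5%) and 0 fell (7.74%). Of 36 DNA replication genes 20 rose in WT cells (11.5% of all genes) and 0 fell (9.06%), with a median of 1.48. Examples were Uhrf1 (2.43 ± 0.39, adjusted p = 0.00133), Mcm3 (2.01 ± 0.40, 0.00507) and Mcm5 (1.95 ± 0.40, 0.00583). In Bach2-/- cells 1 of the 36 rose (5.5% of all genes), and the list's median was 0.71. It was Orc1 (2.11 ± 0.58, 0.0316), which was well above background on 2 of 3 arrays at each time. At 24 h the replication genes had a median genotype difference of -0.81. With limma 0 passed (2.15% of all genes higher and 0.831% lower), and 16 were lower with the replicate block (10.7%). At an unadjusted p under 0.05, 7 were lower, for which no share of all genes is given here. Of the 36, 35 lay below 0 (54.1% of all genes), the same side as most repair members.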

How the data were processed

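One-colour Cy3 hybridizations of 12 RNA samples to Agilent arrays with 62976 spots were used. The deposited scanner files hold spot intensities that Agilent Feature Extraction 10.7.3.1 background-subtracted, detrended and floored, per the file headers, without normalization between arrays. The deposited table of log2 values made by the authors correlated at 0.9993 to 0.99987 with the gene-centred values computed here, so its scale is log2 and its direction the same, and its centring per gene is inferred from this match and not stated. The medians of its columns at 0 h were -0.039, 0.16 and 0.014 in the WT group and -0.26, -0.097 and -0.031 in the Bach2-/- group. At 24 h these medians were -0.27, 0.11 and 0.011 (WT) or -0.27, 0.49 and 0.071 (Bach2-/-).

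Control spots and outlier flags (112 to 511 per array) were left out, no spot was saturated, and spots of a probe were averaged. Signals were divided by the array's 75th percentile over probes, floored at 0.01 and converted to the log2 scale. A probe was kept where any 1 group had it well above background on its 3 arrays (30735 probes), with 1 probe per gene, that of highest mean. RefSeq accessions named 26413 of 55681 probes, and the other 29268 kept the file's name. Group means were fitted with limma 3.58.1 (R 4.3.3), p-values were two-sided and adjusted by the Benjamini-Hochberg method, and tables were made with Python 3.11.15. In data simulated for the genotype at 24 h over 22744 genes, with 50 genes changed at each size, 5 were called at a log2 change of 1, 31 at 2, 41 at 3 and 49 at 4.

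Samples were grouped by their titles. The labels state no pairing, and the replicate block was used because deviations from group means correlated at 0.467 to 0.889 in all 18 same-number pairs. Centring within groups of 3 itself lowers the correlations between unlike numbers. Ddx3y read -6.64 on Bach2-/- 0 h array 1 and 1.62 on Bach2-/- 24 h array 1, so the same number need not mean the same animal. The 12 other pairs on the same slide correlated at 0.247 to 0.642 and the 24 pairs across slides at -0.814 to -0.417, so number and slide overlap. From 50.9% to 66.7% of spots were well above background, and the number of arrays limits the precision. Named are all members, and up to 5 genes per list and comparison with the smallest adjusted p among those that passed. The members and lists were chosen with earlier results of these data known. Protein sequences were not used here. Results for some other genes of these lists are not reported here.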

Additional observations from a re-analysis of the deposited data

Results flagged for a closer look

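For 8 members, all same-numbered arrays moved one way under one condition and the opposite way under the other. The share of all genes with this pattern was not counted, so it is not shown to be particular to the members. The difference of changes (Bach2-/- minus WT, log2 ± SE, limma with the adjusted p, then the adjusted p with the replicate block) did not pass for any of them.

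In 6 members each Bach2-/- array was higher than the WT array of the same number at 0 h and lower at 24 h. Brca2 gave -0.83 ± 0.39 (adjusted p = 0.722, with the block 0.112) and Fanci -0.90 ± 0.59 (0.847 and 0.121). Atr gave -0.75 ± 0.52 (0.860 and 0.116) and Mre11a -0.82 ± 0.43 (0.781 and 0.0688). Xrcc6 gave -0.92 ± 0.62 (0.852 and 0.0543) and Parp1 -1.03 ± 0.63 (0.840 and 0.0547).

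In the other 2, the change from 0 h to 24 h had opposite signs in the genotypes on all 3 numbers. Fancm was lower at 24 h in WT cells and higher in Bach2-/- cells, a difference of 0.53 ± 0.33 (adjusted p = 0.840, with the block 0.167). Parp2 was higher at 24 h in WT cells and lower in Bach2-/- cells, a difference of -0.94 ± 0.60 (adjusted p = 0.843, with the block 0.0651).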

How the results depend on the processing

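Counts below are of members past the test. For WT against Bach2-/- cells at 0 h (0 members), the replicate block gave 1 and the slide block 1, and leaving out 1 array gave 0. At 24 h (1 member), normexp, no filter on dim probes, the filter requiring all 12 arrays, the compared groups alone and both doubted arrays left out each gave 0, the replicate block 9, the slide block 7, the replicate block without both doubted arrays 3, and leaving out 1 array 0 to 1. For the WT change (14), the replicate block without both doubted arrays gave 24 (23 higher, 1 lower) and leaving out 1 array 6 to 16. For the Bach2-/- change (3), quantile normalization gave 8 (5 higher, 3 lower), no filter 0, the replicate block 15 (11 and 4), the slide block 13 (10 and 3), slide 1 alone 5 (4 and 1), the compared groups alone 0, both doubted arrays left out 10, that with the replicate block 15 (14 and 1), and leaving out 1 array 0 to 8. For the Bach2-/- change over all genes, 3010 of 22744 passed in the main setting. That count was 4100 with quantile normalization, 4451 on slide 1 alone, 7054 with the slide block and 7609 with the replicate block. In these settings the member counts thus rose along with those of all genes, and an excess of members was not tested. The difference of changes gave 0 throughout. The fits without the doubted arrays were chosen after seeing the data.

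No called difference reversed, and 190 differences called in neither setting changed sign. Over all genes, 143, 678, 4667, 3010 and 72 passed (genotype at 0 h and 24 h, WT change, Bach2-/- change and their difference), and 841, 4244, 10685, 7609 and 974 with the replicate block. The slide block gave 726, 3469, 10213, 7054 and 779, and the replicate block without both doubted arrays 521, 2117, 11498, 6559 and 281. Other counts more than 1.5 times apart were 218 at 0 h with quantile normalization, 62, 322 and 41 (0 h, 24 h, difference) with normexp, 78, 360 and 31 with the filter on all 12 arrays, and 83, 291 and 1948 (0 h, 24 h, Bach2-/- change) with the compared groups alone. Leaving out 1 array gave 61 to 188, 349 to 647, 2891 to 5324, 2094 to 3158 and 34 to 70. Without a filter the median of all genes moved by -0.10 at 0 h, 0.19 at 24 h, 0.15 in the Bach2-/- change and 0.26 in the difference. The causes were not tested. Signal over background limited Brca1, Fancd2, Rad54b and Palb2 among the members.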

Other observations

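The mitosis genes lay on the other side of 0 from the repair members when genotypes were compared at 24 h, and were mostly above 0 already at 0 h. At 0 h the median difference was 0.88, with 3 of 26 below 0. With limma 0 passed (0.536% of all genes higher and 0.0923% lower). At an unadjusted p under 0.05, 14 were higher (3.9% of all genes) and 0 lower (2.2%). The replicate block had 4 higher (2.78% of all genes). At 24 h, of 26 tested, 2 were higher in Bach2-/- cells (2.15% of all genes) and 0 lower (0.831%), with a median difference of 0.70. With the replicate block 9 were higher (7.98% of all genes) and 1 lower (10.7%). Ube2c, a ubiquitin-conjugating enzyme of mitotic exit, was higher by 2.11 ± 0.40 (limma, adjusted p = 0.0147) and Ccnb2, a mitotic cyclin, by 1.71 ± 0.34 (0.0183). Mki67, a marker of cycling cells, was 1.17 higher in Bach2-/- cells both at 0 h and at 24 h. The 24 h difference passed with the replicate block (limma, adjusted p = 0.0283) and not without it (0.175). The 0 h difference did not pass with the block (0.0746) or without it (0.41). Its change from 0 h to 24 h was -0.15 in WT and -0.15 in Bach2-/- cells. From 0 h to 24 h in WT cells 2 of the 26 rose (11.5% of all genes) and 1 fell (9.06%). Mybl2 (1.36 ± 0.39, limma, adjusted p = 0.03) and Bub1b (1.54 ± 0.45, 0.0307) rose, and Ccnb2 fell (-1.30 ± 0.34, 0.018).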
